A study of Mus musculus with 15 samples.

Results

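The 10 genes described here belong to the circadian clock or are read out by it: Dbp, Tef, Nfil3, Per1, Per2, Per3, Cry1, Bhlhe40, Bhlhe41 and Nr1d2. They were chosen by name from a table of 8059 genes measured by bulk RNA-seq in mouse muscle stem cells, and all 10 names were listed there. Muscle stem cells, or satellite cells, lie quiescent beside the muscle fibre and are freed for study by digesting the tissue with collagenase and dispase. The series followed them through that digestion at T15, T30, T60, T90 and T120, with T0 as the reference from intact muscle, and every time point is labelled as fixed, with PFA per the labels' protocols. The labels do not describe the sorting of the bulk cells. T30 and T90 are represented by 3 libraries and the remaining time points by 4, named by letters A to D. The labels give no unit for the time points, which were taken as minutes, and the sources used here name neither the time of day of sampling nor the mouse strain, age or sex. No label says whether the libraries came from separate animals, so the p-values measure the spread between these libraries, which may be technical.

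In the mammalian clock, CLOCK pairs with BMAL1 (gene Arntl) and switches on genes that carry an E-box. Among those genes are Per and Cry, whose proteins come back to repress the same pair, Bhlhe40 and Bhlhe41, whose proteins compete for the E-box, and Nr1d1 and Nr1d2, nuclear receptors that repress Arntl through ROR elements. Dbp and Tef are E-box targets too, and their proteins activate output genes at a D-box, a site that NFIL3 occupies as a repressor. Some clock genes, Per1 and Bhlhe40 among them, also answer directly to signals such as cAMP, glucocorticoid or stress, apart from the daily rhythm.

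The promoter letters of this circuit are shown first. They lie in the genes' own promoters and are not the basis of the grouping below. RefSeq promoter windows of build GRCm38.p6 matched 8 of the 10 genes, in 10 windows; Per2 and Bhlhe40 had none in the table used. The 250 bases before each start were searched on both strands for the E-box CACGTG, its variant CACGTT, the D-box spellings TTATGTAA, TTACGTAA, TTACATAA and TTATATAA (TTATGTAA and TTACATAA are reverse complements), the ROR element core AGGTCA and the cAMP element TGACGTCA. Each sequence runs 5′ to 3′ on the gene's strand, with the matched letters in capitals, and no match shared a base with another.
Per3, chr4:151044852-151044881, minus strand, D-box: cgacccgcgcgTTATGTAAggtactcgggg
Per3, chr4:151044805-151044834, minus strand, D-box: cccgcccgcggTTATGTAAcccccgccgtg
Cry1, chr10:85185097-85185126, minus strand, E-box: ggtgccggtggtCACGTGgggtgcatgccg
Cry1, chr10:85185116-85185145, minus strand, E-box variant: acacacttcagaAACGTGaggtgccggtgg
Per1, chr11:69098771-69098800, plus strand, E-box: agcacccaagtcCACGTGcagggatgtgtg
Tef, chr15:81802534-81802563, plus strand, E-box: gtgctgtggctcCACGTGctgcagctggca
Bhlhe41, chr6:145865556-145865585, minus strand, E-box: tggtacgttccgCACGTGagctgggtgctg
Nr1d2, chr14:18239166-18239195, minus strand, ROR core: gattggaagaagAGGTCAggaccgctcgtt
Nfil3, chr13:52981040-52981069, minus strand, ROR core: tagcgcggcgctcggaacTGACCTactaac

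Both D-box matches lay in the Per3 window, 205 to 198 and 158 to 151 bases before its start. Of all 32851 promoter windows searched in the same way, 1.43% held a D-box spelling and 0.0548% held more than one. The E-box was present in 6.02% of all windows, its variant in 3.85%, the ROR core in 14% and the cAMP element in 1.55%. A second Tef start also carried an E-box, and none of the letters was found in the Dbp window. Per1 had 2 windows. That with the E-box printed above also carried a ROR core, and the other held none of the letters. The printed Per1 E-box stretch (from 69098771) lies inside the annotated gene, which begins at 69095217. A match is a description of the sequence, not evidence that a factor binds there.

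Library totals over the listed genes were 2974294 to 10482407 counts up to T30 and 8647622 to 27826437 counts from T60 on. A read background, taken as the median over the exons of 7 long genes named as silent in muscle stem cells, moved with time as well. It equalled 5.97% to 69.6% of the median gene's read density in the libraries up to T30 and 0.843% to 11.7% in the later ones. Of the 7 genes, Ryr3 had the most counts in every library (954 to 5273). Genes of low mean count were not listed, which favoured genes high in the early libraries, such as Muc16 (411 counts in T0 A, 1 in T60 A). The early background may therefore be estimated too high, which was not tested. Results that rest on the background are given below with and without its subtraction, and again without the 5 libraries where it was highest (T0 A and C, T15 D, T30 A and B). All 12 satellite cell markers looked for were listed, with a summed level of 5520 to 8320 CPM (counts scaled to library size, with TMM factors) across all time points. Single markers varied more, from Myf5 at 205 to 363 CPM to Pax7 at 311 to 1830, Myod1 at 63.1 to 1070 and Sdc4 at 346 to 2990 CPM. The sum therefore does not show that each marker was steady. The summed markers of endothelial cells (5 of 8 listed) stood at 321 to 599 CPM at T120 and 149 to 240 CPM at T0. Those of smooth muscle and pericytes (5 of 6) stood at 452 to 640 CPM at T120 and 185 to 294 CPM at T0, and those of myofibres (7 of 10) at 202 to 463 CPM at T120 and 512 to 702 CPM at T0. At T30 the smooth muscle and pericyte sum was already 341 to 422 CPM. The only immune marker listed, Cd68, had 20.9 to 50.5 CPM at T30, against 9.44 to 11.9 CPM at T0, and 14.6 to 27.4 CPM at T60. The fibro-adipogenic markers (4 of 8) summed to 1010 to 1770 CPM over all time points. The part of these other cells in the results was not tested, and in bulk RNA fewer cells of a type and less RNA per cell cannot be told apart.

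Over the time course Dbp, Tef, Per3 and Bhlhe41 fell at T60, T90 and T120 against T0. Nfil3, Per1 and Bhlhe40 rose and had their highest mean at T60, and Cry1 rose and had its highest mean at T120. Per2 showed a smaller fall, called at T90 and T120 and close to the threshold at T60. Nr1d2 was called lower than T0 at T30 and not at the other time points. A gene was called at an adjusted p under 0.05 in edgeR's quasi-likelihood test over all 8059 genes. In the joint test over all time points 10 of 10 genes were called, where 85.7% of all genes were; without the 5 libraries of highest background Nr1d2 was not (adjusted p = 0.165). Against T0, 0 of 10 were called at T15, with 2 at an unadjusted p under 0.05; DESeq2 called 1, Per1, and limma-voom 0. The numbers that rose and fell were 2 and 3 at T30, 4 and 4 at T60, 4 and 5 at T90, and 2 and 5 at T120. The shares of all genes called up and down against T0 were 0.658% and 0.0124% at T15, 3.66% and 1.34% at T30, 27.9% and 28.3% at T60, 33.8% and 35% at T90, and 37.3% and 39.5% at T120. From T60 on a call was thus common across the table. At T60 Nfil3 ranked 31 among the rises of the table by size and Dbp ranked 59 among the falls. At T120 Dbp ranked 6, Bhlhe41 21 and Per3 29 among falls, and Cry1 ranked 57 among rises. The median log2 fold change of the 10 genes was -0.35 at T60 and -0.47 at T120, beside -0.03 and -0.08 over all genes. The comparisons with T0 share the T0 libraries.

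**Figure D1:**
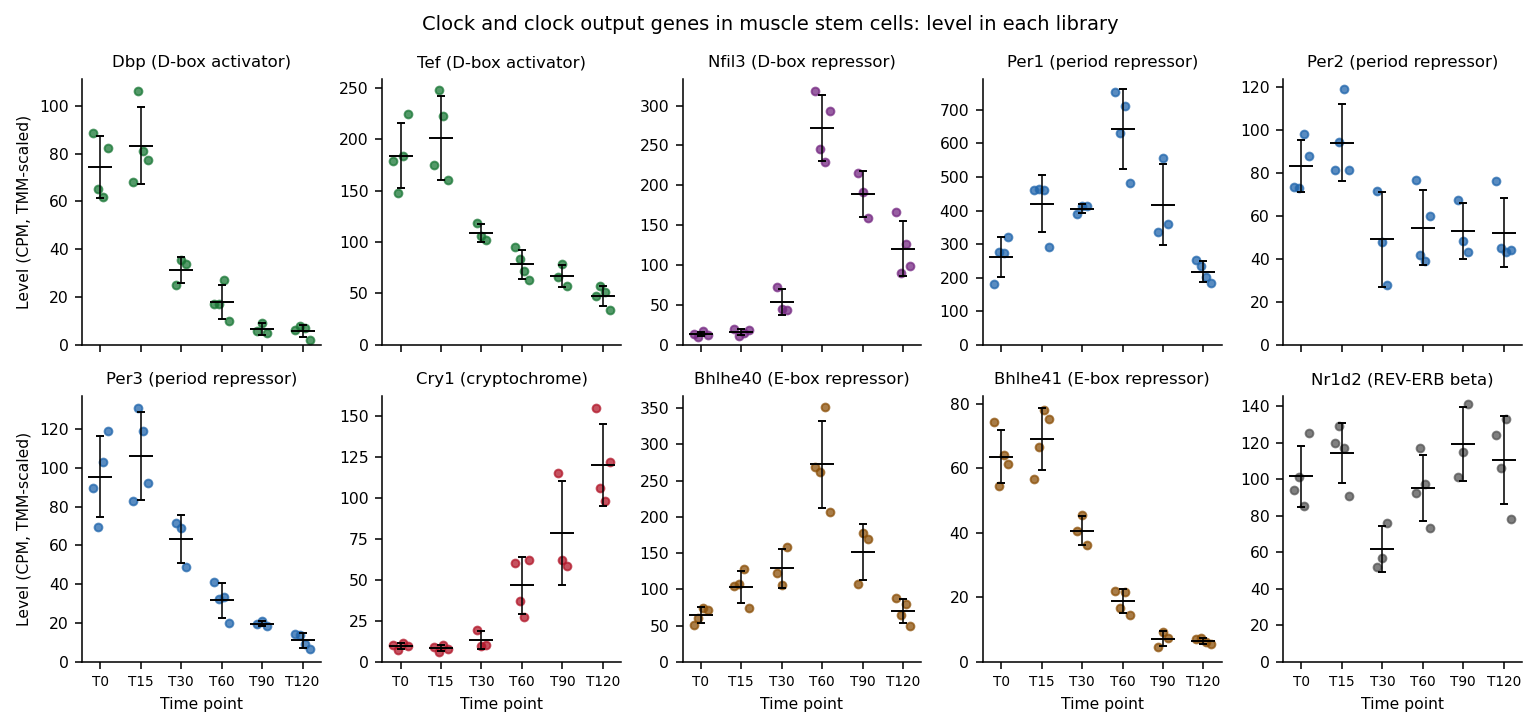
Level of each clock gene (CPM, TMM-scaled, linear axis from 0) in every library by time point; points are libraries, and black bars give the mean and SD of 3 or 4 libraries. Dbp, Tef, Per3 and Bhlhe41 decline from T30 on, Nfil3, Per1 and Bhlhe40 have their highest mean at T60, and Cry1 has its highest at T120.

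The D-box factors moved in opposite directions: the activators Dbp and Tef fell while the repressor Nfil3 rose. Dbp (chromosome 7, 45705088 to 45710203, build GRCm38) had 88.6, 65.0, 61.7 and 82.1 CPM at T0 and 68.2, 106, 81.2 and 77.4 CPM at T15. It had 25.2, 35.4 and 33.7 CPM at T30, 17, 17, 27.3 and 9.9 CPM at T60, 5.61, 9.36 and 5.04 CPM at T90, and 6.3, 7.84, 7.17 and 2.07 CPM at T120. Every library from T30 on lay below every T0 and T15 library. The mean at T120 was 7.86% of the T0 mean. The log2 fold change of Dbp against T0 was -1.24 ± 0.33 (SE) at T30 (adjusted p = 0.0329), -2.07 ± 0.31 at T60 (1.01e-05), -3.48 ± 0.37 at T90 (5.77e-08) and -3.70 ± 0.34 at T120 (3.77e-09), all by edgeR. The T30 call of Dbp was lost when T0 A, B or D or any of the T30 libraries was left out, with values between -1.32 and -1.10 over the 22 exclusions. Of the 2993 exonic bases of Dbp, 539 overlap Sphk2 on the other strand, and the sources used here do not state a strand setting for counting, so reads of the pair cannot be told apart there. Sphk2 itself changed by -0.52 ± 0.13 at T60, -0.77 ± 0.14 at T90 and -0.32 ± 0.13 at T120 on the log2 scale.

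Tef (chromosome 15, 81802421 to 81826863), a relative of Dbp with the same kind of DNA-binding domain, fell less. It had 179, 148, 184 and 225 CPM at T0 and 175, 248, 223 and 160 CPM at T15. It had 119, 106 and 102 CPM at T30, 95.2, 83.1, 71.7 and 63 CPM at T60, 66.4, 78.3 and 56.9 CPM at T90, and 47.2, 57.7, 51.5 and 33.8 CPM at T120. All T30 and later libraries lay below all T0 and T15 libraries. The Tef log2 fold change against T0 was -0.76 ± 0.19 at T30 (adjusted p = 0.019), -1.24 ± 0.17 at T60 (4.88e-06), -1.46 ± 0.19 at T90 (1.12e-06) and -1.96 ± 0.18 at T120 (3.36e-09). The T30 call was lost without T0 D, T30 B or T30 C (-0.85 to -0.63 over the 22 exclusions). In 193 of its 7867 exonic bases an antisense gene overlaps Tef.

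Nfil3 (chromosome 13, 52967209 to 52981073) encodes the basic leucine zipper repressor also called E4BP4. On the deposited counts it had the largest rise of the 10 genes. After background subtraction the Cry1 value was larger (5.52 ± 0.76 at T120, against at most 4.59 ± 0.33 for Nfil3 at T60). That Cry1 value is uncertain, since the background was 57.8% to 93% of its T0 counts of 41 to 104. Nfil3 levels were 13.4, 10.3, 16.8 and 12.7 CPM at T0 and 19.9, 11.1, 14.5 and 18.5 CPM at T15. They were 72.8, 45.4 and 43.6 CPM at T30, 318, 245, 229 and 293 CPM at T60, 216, 192 and 159 CPM at T90, and 167, 90.1, 127 and 99 CPM at T120. The T0 and T15 ranges overlapped, and every later library lay above both. The mean at T60 was 20.4 times the T0 mean, a log2 fold change of 4.37 ± 0.24 (adjusted p = 8.55e-12). At T30 Nfil3 had risen by 2.03 ± 0.24 (7.01e-06), and at T120 it stood 3.20 ± 0.23 above T0 (1.31e-10). From T60 on its mean was lower at each time point: the step from T90 to T120 was called (-0.65 ± 0.21, adjusted p = 0.0339), but not without T90 A, T90 B, T120 B or T120 D (-0.80 to -0.51 over the exclusions). That step was also not called after background subtraction (-0.60 ± 0.29, 0.245). The step from T60 to T90 was not called (-0.52 ± 0.22, 0.0737).

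Within a library, the ratio of these transcripts does not depend on scaling between libraries. Per kilobase of exon, the summed level of Dbp and Tef over that of Nfil3 was 5.31 to 8.95 at T0 and 4.57 to 12.3 at T15. The ratio was 0.654 to 1.13 at T30, 0.0781 to 0.161 at T60, 0.0964 to 0.138 at T90 and 0.0984 to 0.224 at T120. The activators' summed level was thus the higher one in each T0 and T15 library, and the repressor's in each library from T60 on. The background is part of these ratios, and at T0 it came to a median of 33.7% of the Nfil3 count. At T30 it came to 15.2% to 77.7% of the Dbp count and 13.2% to 43.4% of the Tef count. For Nfil3 it was 7.97% to 20.5% there. At T120 it reached 42.5% of the Dbp count. After its subtraction edgeR gave Dbp -1.54 ± 0.44 at T30 (adjusted p = 0.0312) and -4.19 ± 0.44 at T120 (1.17e-07) against T0. Tef then stood at -0.68 ± 0.21 at T30 (0.0466) and -2.22 ± 0.20 at T120 (1.4e-08).

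**Figure D2:**
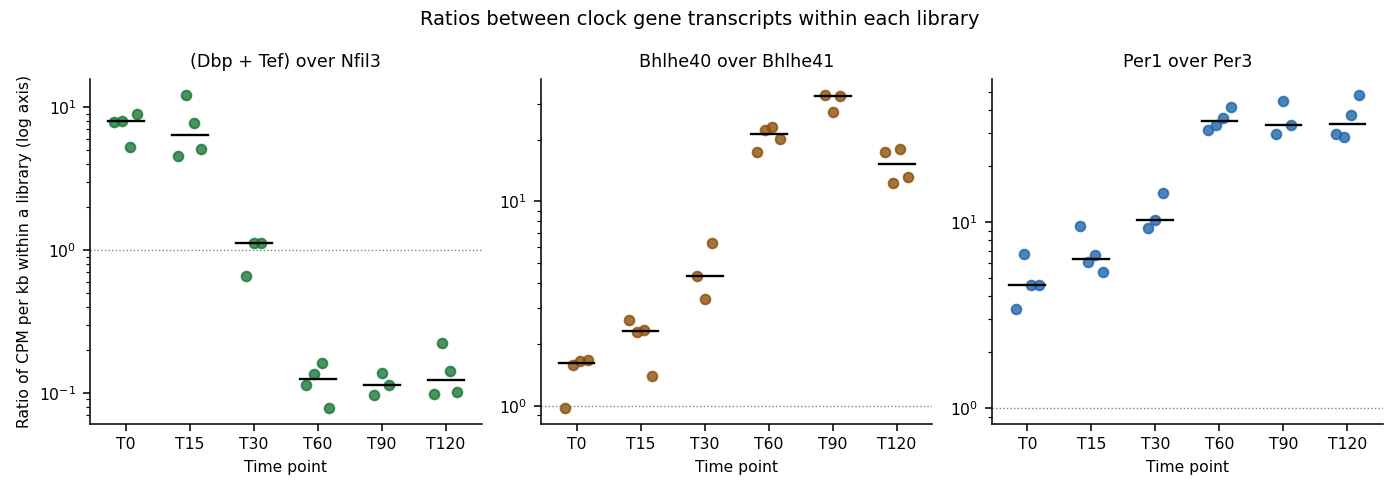
Ratios of length-scaled levels within each library (CPM per kb of exon, log axis) by time point. Points are libraries, bars are medians, and the dotted line marks equal levels. The background was not subtracted. The ratio of Dbp plus Tef to Nfil3 has a median of 0.122 at T120, against 7.98 at T0, while Bhlhe40 over Bhlhe41 reaches 32.6 at T90 and Per1 over Per3 has medians of 33.4 to 34.9 from T60 on.

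The period genes, whose proteins carry PAS domains and repress CLOCK and BMAL1, did not move as a group. Per1 (chromosome 11, 69095217 to 69109960) was raised, Per2 fell modestly and Per3 fell strongly. Per1 had 180, 276, 275 and 320 CPM at T0, 461, 465, 462 and 293 CPM at T15 and 390, 415 and 413 CPM at T30. It had 753, 630, 711 and 483 CPM at T60, 335, 557 and 361 CPM at T90, and 254, 234, 203 and 183 CPM at T120. Of the T15 libraries, 3 stood together above all T0 libraries and the fourth, T15 D, lay within the T0 range. All T60 libraries lay above all T0 libraries, and the T120 range fell inside the T0 range. Per1 differed from T0 by a log2 fold change of 0.68 ± 0.19 at T15 (adjusted p = 0.213) and 0.63 ± 0.21 at T30 (0.0874). The difference was 1.29 ± 0.20 at T60 (1.17e-05), 0.67 ± 0.21 at T90 (0.00691) and -0.27 ± 0.19 at T120 (0.213). DESeq2 gave the T15 value an adjusted p of 0.0379 and the T30 value 0.031, while limma-voom called neither (0.213 and 0.0754). Without T90 B, the highest T90 library, Per1 at T90 was no longer called (0.39 over T0).

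Subtraction of the background changed the timing of the Per1 calls. Afterwards Per1 was called at T30 (1.12 ± 0.21, adjusted p = 0.00184) and T60 (0.97 ± 0.20, 0.000852), not at T90 (0.36 ± 0.21, 0.18), and it was called as a fall at T120 (-0.51 ± 0.20, 0.0355). The step from T30 to T60, called on the deposited counts (0.67 ± 0.21, 0.0119), then turned to -0.15 ± 0.21. Whether Per1 was highest at T30 or at T60 thus depended on whether the background was subtracted and the scaling recomputed. The background was 2.34% to 9.46% of the Per1 count at T30 and at most 0.134% at T60. Its removal from the Per1 counts alone would thus make the step from T30 to T60 larger. Library totals and scaling factors were also recomputed after subtraction, and their part was not tested separately. Later falls of Per1 were called from T60 to T90 (-0.62 ± 0.21, 0.0291) and from T90 to T120 (-0.94 ± 0.21, 0.00364). The first of these was lost without T60 A, T60 C, T90 A or T90 C (-0.89 to -0.50).

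Per2 (chromosome 1, 91415982 to 91459324) had 73.4, 72.9, 98 and 87.7 CPM at T0, 81.4, 94.4, 119 and 81.1 CPM at T15 and 71.7, 48 and 27.6 CPM at T30. It had 76.4, 41.8, 39.1 and 60.1 CPM at T60, 67.5, 48.1 and 43.1 CPM at T90, and 76, 45.1, 43.2 and 44.2 CPM at T120. The A library was the highest of its time point from T30 to T120, and at T60 and T120 it lay within the T0 range. The Per2 log2 fold change against T0 was -0.77 ± 0.29 at T30 (adjusted p = 0.136), -0.61 ± 0.26 at T60 (0.0505), -0.65 ± 0.28 at T90 (0.0447) and -0.67 ± 0.26 at T120 (0.0234). The T60 value was called in 11 of the 22 exclusions, by limma-voom (-0.64, adjusted p = 0.0323) and by DESeq2 (-0.61, 0.0314). It was not called after background subtraction (-0.79 ± 0.32, 0.0619). The T90 call was lost without T0 C, T0 D, T15 B, T90 B or T90 C, and the T120 call without T0 C, T120 B, T120 C or T120 D, with values between -0.87 and -0.55. Per2 at T90 was also not called after background subtraction (-0.83 ± 0.35, 0.0576). With the 5 high-background libraries left out, neither the T90 (0.0889) nor the T120 value (0.0678) was called. The background reached 56% of the Per2 count at T30 and 23.4% at T0. From T30 on the means stayed between 59.2% and 65.5% of the T0 mean, and none of the 3 steps from T30 to T120 was called.

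Per3 (chromosome 4, 151003652 to 151044665) fell at T60, T90 and T120, as Dbp, Tef and Bhlhe41 did. Its levels were 89.8, 69.7, 103 and 119 CPM at T0 and 82.7, 131, 119 and 92.3 CPM at T15. They were 71.7, 69.2 and 49 CPM at T30, 41.4, 32.2, 33.2 and 19.8 CPM at T60, 19.3, 21.2 and 18.5 CPM at T90, and 14.6, 14, 9.22 and 6.45 CPM at T120. Libraries from T60 on lay below all T0 libraries without overlap. Per3 fell by 1.59 ± 0.24 at T60 (adjusted p = 1.12e-05), by 2.28 ± 0.27 at T90 (2.97e-07) and by 3.14 ± 0.26 at T120 (8.28e-10) on the log2 scale. At T30 the change was -0.60 ± 0.26 (0.207) on the deposited counts and -1.38 ± 0.35 (0.0167) after background subtraction, with the background at 33.6% to 87.7% of the T30 counts.

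The make-up of the period transcripts shifted over the same times. Per1 made up 59.4% to 71.4% of the summed length-scaled level of Per1, Per2 and Per3 at T0, 87.4% to 92.6% at T60 and 75.6% to 82% at T120. The ratio of Per1 to Per3 was 3.43 to 6.76 at T0, 9.26 to 14.4 at T30 and 28.7 to 48.4 at T120. The background is part of this ratio. It came to 33.6% to 87.7% of the Per3 count at T30 and 8.5% to 76.6% at T120, against at most 9.46% and 2.68% of the Per1 count. Summed over Per1, Per2 and Per3, the level was 53.8 to 84.2 CPM per kb at T0, 98.2 to 151 at T60 and 40.7 to 59.6 at T120.

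Cry1 (chromosome 10, 85131700 to 85185064), the cryptochrome that represses CLOCK and BMAL1 together with the PER proteins, was called from T60 on and had its highest mean at T120. It had 10.5, 7.13, 11.7 and 9.35 CPM at T0, 9.16, 6.05, 10.1 and 7.99 CPM at T15 and 19.7, 9.81 and 10.5 CPM at T30. It had 60.4, 37, 27.1 and 62 CPM at T60, 115, 62.3 and 58.5 CPM at T90, and 155, 106, 98.4 and 122 CPM at T120. All libraries up to T30 lay below all later ones. The mean at T120 was 12.4 times the T0 mean. The Cry1 log2 fold change against T0 was 0.45 ± 0.34 at T30 (adjusted p = 0.498), 2.28 ± 0.30 at T60 (2.05e-06), 3.03 ± 0.31 at T90 (3.92e-08) and 3.65 ± 0.31 at T120 (1.16e-09).

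Among the 10 genes Cry1 was the closest to the background in the early libraries. There the background equalled 57.8% to 93% of the Cry1 count at T0, and up to 160% at T15 and 156% at T30. Where it exceeded the count, none of the count was left after subtraction. The deposited fold changes of Cry1 are therefore set against a level that is largely background. After subtraction they were 4.07 ± 0.73 at T60 (adjusted p = 0.00022) and 5.52 ± 0.76 at T120 (4.11e-06), and without the 5 libraries of highest background 2.49 and 3.89. The step from T30 to T60 was called in each case (1.83 ± 0.32 on the deposited counts, adjusted p = 0.000102). That from T60 to T90 (0.75 ± 0.28, 0.0496) was lost in 14 of 22 runs that left out a library from any time point, with values between 0.36 and 0.91, and after subtraction (0.538).

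Bhlhe40 and Bhlhe41 (also Dec1 and Dec2), paralogous repressors that bind the E-box, went opposite ways. Bhlhe40 (chromosome 6, 108660629 to 108666925) had 50.8, 60.2, 74.6 and 71.6 CPM at T0, 104, 107, 128 and 74 CPM at T15 and 122, 106 and 159 CPM at T30. It had 269, 262, 352 and 207 CPM at T60, 108, 178 and 169 CPM at T90, and 87.5, 64.2, 79.1 and 49.3 CPM at T120. All T30, T60 and T90 libraries lay above all T0 libraries, while the T0 and T120 ranges overlapped. Bhlhe40 rose by 1.01 ± 0.23 at T30 (adjusted p = 0.00828), 2.08 ± 0.22 at T60 (8.29e-08) and 1.24 ± 0.22 at T90 (5.31e-05). At T120 the log2 fold change was 0.12 ± 0.21 (0.605). At T15 it was 0.69 ± 0.21 (0.338), for which the authors' deposited table gives 0.667 with an adjusted p of 0.0289.

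Bhlhe41 (chromosome 6, 145858243 to 145865558) had 74.5, 54.6, 64.2 and 61.3 CPM at T0, 56.7, 66.6, 78 and 75.4 CPM at T15 and 40.5, 45.4 and 36.2 CPM at T30. It had 22, 16.8, 21.8 and 14.6 CPM at T60, 4.64, 9.31 and 7.4 CPM at T90, and 7.15, 7.48, 6.28 and 5.39 CPM at T120. No library from T30 on reached the T0 range. The log2 fold change of Bhlhe41 was -0.65 ± 0.19 at T30 (adjusted p = 0.0544), -1.76 ± 0.18 at T60 (6.76e-08), -3.14 ± 0.21 at T90 (8.95e-11) and -3.29 ± 0.20 at T120 (7.9e-12). At T30 it passed the threshold without T90 A or T90 B (-0.73 to -0.56). It was also called there by limma-voom (-0.67, adjusted p = 0.0285) and DESeq2 (-0.63, 0.0252). With 0.5 of the background subtracted it was called at T30 (-0.89 ± 0.25, 0.0284), and with all of it subtracted it was not (-1.66 ± 0.82, 0.203). After background subtraction the T60 value was -1.84 ± 0.73 (0.0582) and the T120 value -3.99 ± 0.81 (0.000295), with the background reaching up to 109% of the Bhlhe41 count at T30 and 100.1% at T120. A predicted transcript on the other strand (biotype TEC) overlaps 1280 of its 6720 exonic bases, and an antisense gene 118 of the 4705 of Bhlhe40. Per kilobase, Bhlhe40 stood at 0.973 to 1.67 times Bhlhe41 at T0, 17.4 to 23 times at T60, 27.3 to 33.3 times at T90 and 12.3 to 18 times at T120.

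Nr1d2 (chromosome 14, 18204054 to 18239127) encodes REV-ERB beta, a haem-binding nuclear receptor that represses genes with ROR elements. It had 94.3, 101, 85.5 and 125 CPM at T0, 120, 129, 117 and 90.7 CPM at T15 and 51.8, 57 and 75.8 CPM at T30. It had 92.6, 117, 97.4 and 73.2 CPM at T60, 101, 115 and 141 CPM at T90, and 124, 106, 133 and 78.4 CPM at T120. The T30 libraries were below all T0 and T15 libraries, and from T60 on the ranges overlapped that of T0. Nr1d2 changed by -0.72 ± 0.20 at T30 (adjusted p = 0.0359), -0.10 ± 0.18 at T60 (0.659), 0.23 ± 0.19 at T90 (0.29) and 0.12 ± 0.18 at T120 (0.548) against T0. From T30 to T60 it rose (0.62 ± 0.19, 0.0116). The T30 call was lost without T0 A, B or D, T15 C, T30 A or B, or T60 A or C (-0.89 to -0.59), and the step up was lost without T30 A, T30 B or T60 B (0.49 to 0.79). The background came to a median of 43.5% of the Nr1d2 count at T30; after its subtraction the T30 value was -0.89 ± 0.22 (0.0132). At T30 limma-voom did not call Nr1d2 (-0.70, adjusted p = 0.0788), while DESeq2 did (-0.70, 0.0144).

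**Figure D3:**
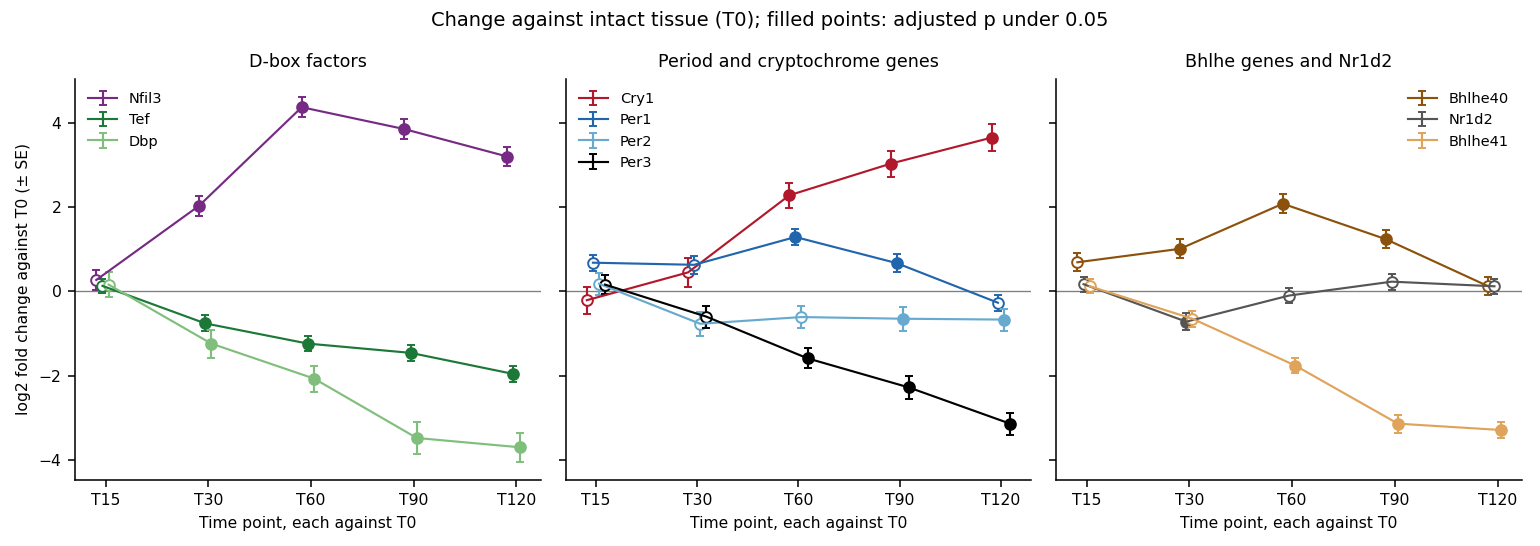
Log2 fold change against T0 (± SE, edgeR, 22 libraries) of the D-box factors, the period and cryptochrome genes, and Bhlhe40, Bhlhe41 and Nr1d2, by time point; filled points have an adjusted p under 0.05. No point is filled at T15, and by T120 Cry1 (3.65) and Nfil3 (3.20) are above T0 while Dbp (-3.70), Bhlhe41 (-3.29) and Per3 (-3.14) are below.

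Steps between neighbouring time points are not differences from T0, although the T0 libraries enter the shared fit that gives their spread and scaling. From T15 to T30, Nfil3 rose (1.76 ± 0.23, adjusted p = 0.000116) and Dbp, Tef, Bhlhe41 and Nr1d2 fell, where 3.16% of all genes rose and 1.72% fell. Of these falls, that of Dbp was lost without T15 B, T30 A or T30 B (-1.47 to -1.25), that of Tef without T30 B, that of Nr1d2 without T30 A or B, and that of Bhlhe41 without T15 B or C or any T30 library. After background subtraction Bhlhe41 (-1.79 ± 0.82, adjusted p = 0.176) was no longer called in this step, while Nfil3, Dbp, Tef and Nr1d2 still were. Per3 (-1.50 ± 0.35, 0.0136) and Bhlhe40 (0.79 ± 0.22, 0.0394) became called. From T30 to T60, 5 genes rose (Nfil3 by 2.34 ± 0.24, Cry1, Bhlhe40 by 1.07 ± 0.23, Per1 and Nr1d2) and 4 fell (Bhlhe41 by 1.11 ± 0.19, Per3, Dbp and Tef), against 26.5% and 24.5% of all genes. After background subtraction the falls of Bhlhe41 (-0.18 ± 0.78, adjusted p = 0.867), Per3 (-0.30 ± 0.34, 0.49) and Dbp (-0.82 ± 0.42, 0.137) and the rises of Bhlhe40 (0.49 ± 0.23, 0.104) and Per1 were no longer called in this step. The falls of Dbp (-0.83 ± 0.33) and Tef (-0.48 ± 0.19) in that step were lost without T30 B, and also without T30 C, T60 A, T60 B or T60 D for Dbp and without T30 A, T60 C or T60 D for Tef. From T60 to T90, 16.7% of all genes rose and 13.6% fell: Cry1 rose, and Per1, Per3, Bhlhe40, Bhlhe41 (-1.38 ± 0.20, 8.21e-05) and Dbp (-1.41 ± 0.35, 0.0047) fell. After background subtraction Bhlhe41 (-1.72 ± 0.82, 0.199), Per1 (0.0717), Per3 (0.136) and Cry1 were no longer called in this step, while Dbp (-1.55 ± 0.44, 0.0248) and Bhlhe40 (-0.85 ± 0.23, 0.019) still were. On the deposited counts Bhlhe40 (-0.84 ± 0.22, 0.00801) was not called without T90 A (-0.66), and Per3 (-0.69 ± 0.26, 0.0498) was lost in 14 of the 22 exclusions (-0.87 to -0.55). From T90 to T120, 0 of 10 rose in edgeR, whereas limma-voom called Cry1 (0.67, adjusted p = 0.0418), and Per1, Per3, Bhlhe40 (-1.12 ± 0.22, 0.00184) and Nfil3 fell, against 9.11% and 13.9% of all genes. Here Per3 (-0.86 ± 0.26, 0.0247) was lost without T90 B, T90 C, T120 C or T120 D (-0.98 to -0.63). After background subtraction Nfil3 (-0.60 ± 0.29, 0.245) was no longer called in this step, while Per1, Per3 and Bhlhe40 still were.

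The T30 values rest on few clean libraries. Without the 5 libraries of highest background, T30 keeps 1 library, assumed to vary like the other groups, and 1 of the 10 genes was called there against T0, Nfil3 (1.94, adjusted p = 0.00441). With the background subtracted and all libraries kept, 7 were called at T30: the 5 of the deposited counts, Per1 and Per3. At T60 and T120 the exclusion of the 5 libraries left 8 and 6 genes called, and Dbp stood at -3.63, Bhlhe41 at -3.10, Per3 at -3.08, Nfil3 at 3.43 and Cry1 at 3.89 on the log2 scale at T120.

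**Figure D4:**
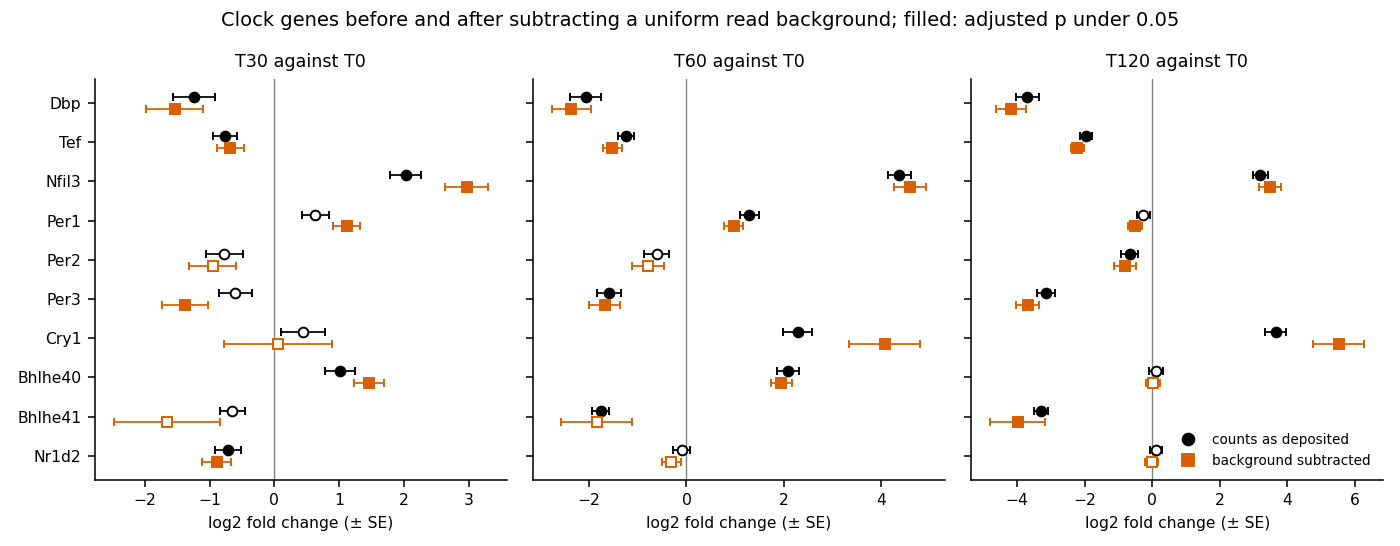
Log2 fold change (± SE) of each clock gene at T30, T60 and T120 against T0, from the counts as deposited (black circles) and after subtracting a uniform read background (orange squares); filled symbols have an adjusted p under 0.05. Cry1 shifts most, to 4.07 at T60 and 5.52 at T120, and Cry1 and Bhlhe41 have the widest errors after subtraction (both 0.73 at T60).

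Compared per kilobase of exon, the order of the transcripts was rearranged. At T0 Per1 was highest (46.7 ± 10.4 CPM per kb, SD, n = 4) and its range lay above that of Dbp (24.8 ± 4.36) and Tef (23.4 ± 4.02), which overlapped each other. Nr1d2 (18.8), Per2 (14.2), Bhlhe40 (13.7), Per3 (9.93), Bhlhe41 (9.47) and Nfil3 (6.55) followed with each range overlapping the next, and Cry1 (2.90 ± 0.588) was lowest with no overlap. At T120 Nfil3 (59.6 ± 17.0), Per1 (38.8 ± 5.64) and Cry1 (35.9 ± 7.48) led with overlapping neighbours. Nr1d2 (20.4), Bhlhe40 (14.9), Per2 (8.90) and Tef (6.04) came next, and Dbp (1.95), Per3 (1.15) and Bhlhe41 (0.978) were lowest, with Dbp below Tef in every library. The T120 ranges of Dbp (0.692 to 2.62), Per3 (0.672 to 1.52) and Bhlhe41 (0.802 to 1.11) overlapped. The background was not subtracted from these levels. It equalled 57.8% to 93% of the Cry1 count at T0. At T120 it equalled 3.41% to 42.5% of the Dbp count, 8.5% to 76.6% of the Per3 count and 8.74% to 100.1% of the Bhlhe41 count.

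Across the 22 libraries, log2 CPM of Dbp correlated with that of Bhlhe41 (Pearson r = 0.97), Tef (0.96) and Per3 (0.96), and negatively with Cry1 (-0.95). Per1 was most like Bhlhe40 (0.91), and Nr1d2 had r between -0.20 and 0.15 with each of the other 9 genes. These values describe 22 libraries that share 6 time points, over which totals and background also move. Over the whole table, the pair most like each gene was Bhlhe41 and Pik3ip1 for Dbp, Per3 and Dbp for Tef, Bcl3 and Wsb1 for Nfil3 (0.99 and 0.986), and Bhlhe40 and Osr2 for Per1. For Per2 it was Nav2 and Thsd4 (0.79 and 0.763), for Per3 9430015G10Rik and C2cd3, and for Cry1 Slc7a6os and Clic4 (0.987 and 0.982). For Bhlhe40 it was Zfp36l1 and Per1, for Bhlhe41 Pot1a and Tia1, and for Nr1d2 Smc3 and Trpm7 (0.857 and 0.838).

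Of a further list of 30 clock genes, 24 were in the table, and more of them rose than fell at T60, T90 and T120. At T60, 14 rose and 3 fell, with a median log2 fold change of 0.55; at T90, 13 rose and 2 fell (0.64); at T120, 13 rose and 7 fell (0.47). The all-gene shares called stand above. At T15 Sik1 was the 1 gene called, and at T30 Noct and Sik1 rose and Nr1d1 fell. The activators rose: Arntl had 105 to 146 CPM at T120 and 17.3 to 40.2 CPM at T0 (log2 fold change 2.14 ± 0.28, adjusted p = 5e-07), Clock 337 to 427 CPM and 122 to 159 CPM (1.45 ± 0.11, 2.77e-10), and Npas2 59.9 to 132 CPM and 25 to 51.3 CPM (1.35 ± 0.28, 0.000203). Rora, the receptor that activates at ROR elements, rose by 0.82 ± 0.15 at T120, and Cry2 by 0.36 ± 0.13 (0.0207), far less than Cry1. Nr1d1, which encodes REV-ERB alpha, had 78.7 to 170 CPM at T60 and 272 to 348 CPM at T0 (-1.28 ± 0.22, 4.2e-05), and at T120 its log2 fold change was -0.17 ± 0.21 (0.469). Unlike Nr1d2, it was called at T60 as well as T30, but the difference between these 2 genes was not tested.

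Noct, a circadian phosphatase gene, and Sik1, a kinase gene induced by cAMP, had the largest changes of that list. Noct had 128 to 194 CPM at T120 and 5.57 to 15.9 CPM at T0 (4.22 ± 0.29, adjusted p = 6.36e-11), and Sik1 had 921 to 1300 CPM and 100 to 177 CPM (3.02 ± 0.19, 1.37e-11). Csnk1d, which encodes a kinase that phosphorylates PER proteins, rose by 1.45 ± 0.14 at T120, and Nampt, an enzyme of NAD synthesis, by 1.31 ± 0.14. Sfpq, which encodes an RNA-binding partner of PER complexes, rose by 1.78 ± 0.13. Of the paralogous ubiquitin ligase adaptors that recognise PER proteins, Fbxw11 rose by 1.52 ± 0.12 and Btrc fell by 1.81 ± 0.18 (1.42e-08). The background was not subtracted from these values.

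**Figure D5:**
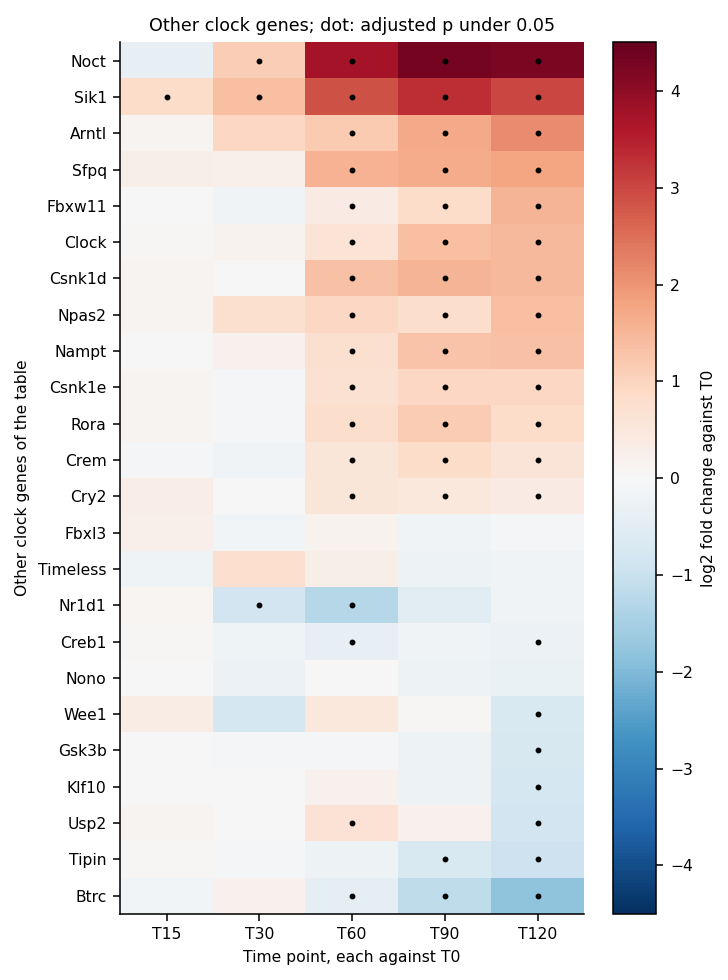
Log2 fold change against T0 of 24 further clock genes by time point (colour), ordered by the T120 value; dots mark an adjusted p under 0.05. Noct (4.22) and Sik1 (3.02) are highest at T120 and Btrc (-1.81) lowest, and Nr1d1 is called at T30 and T60.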

How the data were processed

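Bulk libraries of 6 time points were analysed; 9 of the 15 labelled samples, of single nuclei or single cells, were not analysed here. Per the labels' protocols, RNA was made into stranded total RNA libraries and read as 65-base single reads. The authors deposited whole-number counts per gene; per the submitters' processing notes the build is mm10 and featureCounts 1.4.5-p3, DESeq2 1.18.1 and cutadapt are named, with no role given. The sources used here name no aligner and no strand setting. The authors' deposited log2 fold changes and adjusted p-values are quoted where named; 22 scaled per-library columns and 6 group means were not used. No listed gene has a mean scaled count under 98.4, and genes below that were not analysed here.

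Tests used edgeR 4.0.16 under R 4.3.3 (TMM, quasi-likelihood F test, time point as a factor, all 22 libraries, Benjamini-Hochberg over 8059 genes; filterByExpr kept all 8059; common biological coefficient of variation 0.192). SE was taken as |log2 fold change|/√F. The T30 against T0 comparison was tried on simulated data with few genes changed. That simulation did not cover the larger shares of genes called from T60 on. A read background, the median count per kb of 7 listed genes out of 39 long genes named as silent in muscle stem cells, was subtracted per kb of GENCODE vM21 exon as an alternative. Other alternatives were DESeq2 1.42.0, limma-voom (limma 3.58.1), other scaling, filters, a block for library letter, and leaving out libraries. All 10 genes are named. Of the further list, those called at T30, T60 or T120 with a log2 fold change of at least 1 in size are named, with Clock, Arntl, Npas2, Cry2, Nr1d1 and Rora. Sequences and positions are RefSeq GRCm38.p6 and GENCODE. The genes and lists were chosen with earlier results of these data known. TMM takes most genes as unchanged, so a shift shared by most genes could not be seen.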

Additional observations from a re-analysis of the deposited data

Results flagged for a closer look

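Among 40 groups of 4 libraries examined (10 genes at 4 time points), a lone library stood far from the others in 2; chance alone gives about 1 in 20 such groups. Per1 at T15 was 293 CPM in library D, against 461 to 465 CPM in the other 3, a gap of 0.977 of the group's range. T15 D is among the 5 libraries of highest background. Per2 at T120 was 76 CPM in library A, against 43.2 to 45.1 CPM in the other 3, a gap of 0.942 of the range.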

How the results depend on the processing

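Of 2970 log2 fold changes recomputed (10 genes, 9 comparisons, 33 settings), 2729 kept their direction and side of the threshold, 142 were no longer called, 53 became called and 46 turned sign. The count of genes called moved by more than 1.5 times in these cases. DESeq2 called 1 gene at T15. Without the 5 libraries of highest background, 1 was called at T30 against T0, 1 from T15 to T30 and 3 from T30 to T60. With the background subtracted, 4 were called from T30 to T60 and 2 from T60 to T90, and with only the 2 time points compared, 2 from T90 to T120. Leaving out each library in turn gave 2 to 6 genes at T30 against T0, 1 to 6 from T15 to T30, 2 to 7 from T60 to T90 and 2 to 5 from T90 to T120; the lowest counts came without T0 D or T30 B, T30 B, T90 A, and T90 B or T120 D. The causes were not tested.

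Of the values that turned sign, Per1 from T30 to T60 had been called and became -0.15 after subtraction; the others had not been called. From T15 to T30, Per1 became 0.06 with library totals alone, 0.56 with the background and 0.24 with 0.5 of it subtracted, and Cry1 -0.75 after subtraction; Cry1 at T15 became 0.81 after subtraction and 0.01 without the 5 libraries. With library totals alone, Bhlhe40 at T120 became -0.27, Nr1d2 -0.17 at T90 and -0.26 at T120, and Per2 from T30 to T60 -0.20; subtraction took Nr1d2 at T120 to -0.02. Per2 from T90 to T120 lay at 0 to 0.01 under both other scalings, the stricter filter, the 2-point fit, DESeq2 and all background settings. Leave-one-out ranges with both signs were -0.16 to 0.02 for Per1 from T15 to T30; for Per2 -0.16 to 0.53 from T30 to T60, -0.26 to 0.15 from T60 to T90 and -0.21 to 0.22 from T90 to T120; from T90 to T120, -0.39 to 0.12 for Dbp, -0.32 to 0.09 for Bhlhe41 and -0.21 to 0.05 for Nr1d2; and -0.23 to 0.02 for Nr1d2 at T60.

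Library totals alone moved the median log2 fold change of all genes to -0.35 at T60 and -0.46 at T90 and T120, so small changes depend on the scaling. Same-letter libraries of different time points deviated together in 26 of 51 pairs (r over 0.1; median 0.116) and other-letter ones in 45 of 150 (median -0.021). Same-letter libraries thus deviated together more often, though not in every pair. The labels do not say what the letters mark, and the main fit did not take them as pairs. With letter as a replicate block, the counts of genes called were 9 at T60 (against 8), 6 from T15 to T30 (5), 7 from T30 to T60 (9), 7 from T60 to T90 (6) and 5 from T90 to T120 (4), and at the other comparisons the same as without it.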
